A study of Mus musculus with 4 samples.

Results

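Type I interferon-stimulated genes were followed in tumour T cells as a list of 30 gene symbols, read from the 4 count matrices of the series. The symbol Mx1 is not among the 32285 genes of the feature lists used here, so 29 members had values, and 28 of them passed the filter on low counts over all T cells; Ifi44 did not. CD8-positive T cells were sorted as live CD45, CD3 and CD8 positive cells from tumours of B16F10, a mouse melanoma line, in C57BL/6J mice aged 6 to 8 weeks, and were profiled with droplet 5′ single-cell libraries. The groups were sgArid1a (a guide RNA against Arid1a, which encodes a DNA-binding part of the SWI/SNF remodeller of chromatin) and sgScr (a scrambled control guide), with 2 samples each. Whether the tumour, the T cells or both carried a guide is not given in the labels. Separate animals per replicate are not stated either, so each p-value reflects the spread between these 4 samples alone, and that spread may be technical.

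Type I interferons are cytokines that cells release on sensing viral or misplaced nucleic acid. They bind the receptor chains Ifnar1 and Ifnar2, the kinases Jak1 and Tyk2 then act, and a complex that holds Stat2 and Irf9 binds interferon-stimulated response elements in target promoters. The targets block viral replication, sense nucleic acid and damp the response, and in T cells their products also accompany activation and survival. Many of them answer to interferon-gamma as well.

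After filtering, 38261 T cells remained of 39473 barcodes: 10695 and 12773 in the sgArid1a samples, against 7636 and 7157 in the sgScr samples. The median number of unique molecules (UMIs) per T cell was 2407 and 4025 in sgArid1a, against 3750 and 3597 in sgScr, so sgArid1a replicate 1 was the shallowest library. Libraries shared between 78 and 231 cell barcodes per pair. Arid1a itself stood at 74.1 and 72.6 CPM (UMI counts scaled to a common library total) in sgArid1a, against 85.2 and 93.6 CPM in sgScr, a log2 change of -0.26 ± 0.06 (SE; edgeR adjusted p = 0.00423). T cell genes were present in every library: the summed level of 6 CD3, CD8 and receptor genes was 5275 and 5302 CPM in sgArid1a, against 4891 and 4955 CPM in sgScr. Markers of other cell types were read in the same T cells. The summed level of 9 macrophage markers was 3.61 and 7.0 CPM in sgArid1a, against 3.51 and 3.48 CPM in sgScr (5 of 7 tested were higher). That of 8 melanoma genes was 2.09 and 2.91 CPM in sgArid1a, against 2.86 and 2.76 CPM in sgScr. The summed level of 6 plasmacytoid dendritic cell markers, which include the member Bst2, was 304 and 320 CPM in sgArid1a, against 185 and 187 CPM in sgScr. Of the 4 tested, Bst2, Irf8 and Tcf4 were higher and Ccr9 was lower; Siglech had 0 UMIs in every library and Cox6a2 was under 1 CPM. A UMI of this list was found in 10.1 and 10.3% of T cells thinned to 1500 UMIs each in sgArid1a, against 6.64 and 7.06% in sgScr. The summed level of 7 MHC class II and dendritic cell genes was 107 and 106 CPM in sgArid1a, against 40.6 and 52.5 CPM in sgScr, nearly all from Cd74 and the class II chains, while Flt3, Xcr1 and Clec9a were under 1 CPM. The part of these genes in the results was not tested.

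Promoter sequences in RefSeq (GRCm38.p6), from 250 bases before to 50 bases after each start, were at hand for 22 of the 29 members. The core of the interferon-stimulated response element, searched as GAAA, any 2 bases and GAAA again on either strand, occurred in the promoter of 14 of these 22 genes, whereas it occurred in 3.99% of the 27025 genes with a promoter in the same table. The interferon-gamma activated site, TTCNNNGAA, which reads the same on both strands, occurred in 3 of the 22, against 9.55% of all genes. The 7 promoters shown are Isg15 (chr4:156200769-156201068, minus strand), Ifit3 (chr19:34583279-34583578, plus strand), Ifit1 (chr19:34640639-34640938, plus strand), Rsad2 (chr12:26456403-26456702, minus strand), Bst2 (chr8:71537423-71537722, minus strand), Slfn5 (chr11:82951852-82952151, plus strand) and Cmpk2 (chr12:26468965-26469264, plus strand). The first 5 belong to genes that were higher in sgArid1a, Slfn5 was not called over all T cells, and Cmpk2, a neighbour of Rsad2 transcribed in the opposite direction, rose without a match. Capitals mark that core, or on the other strand TTTC, any 2 bases and TTTC, and neighbouring matches may overlap, as in Isg15 and Bst2.
Isg15: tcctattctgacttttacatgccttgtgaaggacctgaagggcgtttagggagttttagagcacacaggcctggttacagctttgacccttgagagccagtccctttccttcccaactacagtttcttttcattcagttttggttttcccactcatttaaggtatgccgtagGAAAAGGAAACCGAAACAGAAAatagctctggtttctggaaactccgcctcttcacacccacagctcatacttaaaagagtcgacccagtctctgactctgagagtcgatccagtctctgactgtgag
Ifit3: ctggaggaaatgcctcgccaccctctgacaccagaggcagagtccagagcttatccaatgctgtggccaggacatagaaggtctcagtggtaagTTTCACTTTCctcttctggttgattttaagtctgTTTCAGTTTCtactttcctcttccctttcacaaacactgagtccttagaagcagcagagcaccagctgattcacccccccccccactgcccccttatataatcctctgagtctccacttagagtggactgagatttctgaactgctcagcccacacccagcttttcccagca
Ifit1: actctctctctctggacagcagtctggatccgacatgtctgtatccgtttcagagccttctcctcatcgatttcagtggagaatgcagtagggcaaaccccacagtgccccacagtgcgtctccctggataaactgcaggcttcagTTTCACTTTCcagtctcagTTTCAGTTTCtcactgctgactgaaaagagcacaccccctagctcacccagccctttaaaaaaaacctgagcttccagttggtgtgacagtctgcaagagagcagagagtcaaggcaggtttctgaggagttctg
Rsad2: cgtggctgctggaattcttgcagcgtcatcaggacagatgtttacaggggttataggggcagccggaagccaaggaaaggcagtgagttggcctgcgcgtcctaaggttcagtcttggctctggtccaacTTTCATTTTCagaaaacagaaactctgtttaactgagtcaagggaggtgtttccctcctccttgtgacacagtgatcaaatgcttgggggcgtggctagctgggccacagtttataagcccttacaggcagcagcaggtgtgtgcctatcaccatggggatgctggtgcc
Bst2: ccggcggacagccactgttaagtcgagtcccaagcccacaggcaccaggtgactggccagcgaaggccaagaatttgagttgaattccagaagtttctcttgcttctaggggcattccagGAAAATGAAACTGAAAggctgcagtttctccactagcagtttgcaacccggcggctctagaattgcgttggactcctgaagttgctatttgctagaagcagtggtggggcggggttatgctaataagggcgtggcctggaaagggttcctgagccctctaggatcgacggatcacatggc
Slfn5: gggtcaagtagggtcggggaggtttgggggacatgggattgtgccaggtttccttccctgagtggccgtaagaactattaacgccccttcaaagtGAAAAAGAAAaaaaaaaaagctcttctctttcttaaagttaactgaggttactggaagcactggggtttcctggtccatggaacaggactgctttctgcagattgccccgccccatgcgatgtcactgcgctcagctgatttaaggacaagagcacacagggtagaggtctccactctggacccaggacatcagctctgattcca
Cmpk2: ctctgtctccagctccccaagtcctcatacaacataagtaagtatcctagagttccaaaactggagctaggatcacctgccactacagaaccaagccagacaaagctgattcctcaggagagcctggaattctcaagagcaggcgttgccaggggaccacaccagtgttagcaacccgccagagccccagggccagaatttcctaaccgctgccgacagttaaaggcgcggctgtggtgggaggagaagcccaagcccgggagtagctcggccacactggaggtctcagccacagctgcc

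In Isg15 the last of 3 matches began 66 bases before the start, in Ifit1 the last of 2 began 85 bases before it, in Ifit3 the last of 2 began 122 bases before it, and in Rsad2 the single match began 120 bases before it. Of the 14 members with a match, 10 were called higher over all T cells, and so were 5 of the 7 tested members without one. Of all 12793 genes tested, 28% were called higher. That share was not taken apart by match, so these counts do not compare members with other genes that hold one. The 4 members with a match that were not called are Trim30a, Slfn5, Ddx58 and Ifit1bl1. A match in these letters describes the window and does not show binding.

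The members as a group stood higher in sgArid1a over all T cells. Sums of UMIs for each sample were tested with edgeR across all genes, with calls at an adjusted p under 0.05. Of the 28 members tested, 20 were higher, none was lower and 8 were not called, where 28% of all 12793 genes tested were called higher and 26.4% lower. With DESeq2 18 members were higher and none was lower; at an unadjusted p under 0.05, 21 members passed in edgeR, 1 of them (Ifit1bl1) lower. The fitted log2 changes of the 20 called members ran from 0.30 to 1.35, the median over all 28 was 0.52, and the median over all genes tested was -0.02. The summed level of the members was 1418 and 1409 CPM in sgArid1a, against 950 and 959 CPM in sgScr. Both sgArid1a samples stood above both sgScr samples for 21 of the 28 members, as for 35% of all genes, and below them for 3 members, as for 41.1% of all genes. In summed samples, fewer cells with a transcript and less RNA per cell cannot be told apart, which the counts per cell given further on address.

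**Figure D1:**
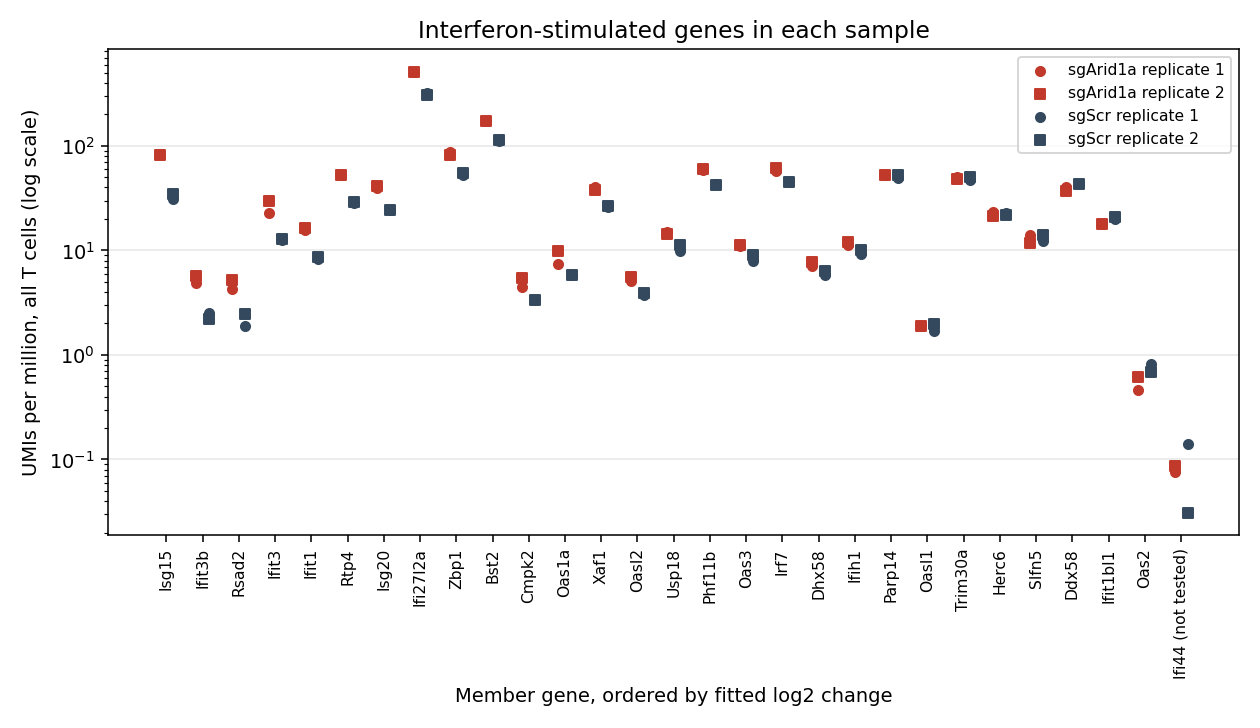
CPM over all T cells (log scale) for the 29 members in each sample, with sgArid1a in red left of sgScr in blue and the replicates as circles and squares. Members are ordered by fitted log2 change; the groups are apart for Isg15 (82.9 and 81.0 against 31.0 and 34.6) and overlap for Trim30a, Herc6, Slfn5 and Oasl1.

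Isg15 (ENSMUSG00000035692, chromosome 4, 156199424 to 156200818, GRCm38), a ubiquitin-like protein that is attached to other proteins, stood at 82.9 and 81.0 CPM in sgArid1a, against 31.0 and 34.6 CPM in sgScr. The groups were far apart, and the log2 change was 1.35 ± 0.07 (adjusted p = 9.11e-09). Usp18 (chromosome 6, 121245906 to 121270917), which removes Isg15 and restrains the receptor, stood at 15.1 and 14.5 CPM in sgArid1a, against 9.90 and 11.2 CPM in sgScr. It was higher without overlap between the groups (log2 0.51 ± 0.09, adjusted p = 0.000288). Herc6, the mouse ligase that attaches Isg15, stood at 23.3 and 21.5 CPM in sgArid1a, against 22.6 and 21.9 CPM in sgScr, and the groups overlapped (log2 0.03 ± 0.08, adjusted p = 0.759).

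Of the Ifit family on chromosome 19 (34583531 to 34650009), whose products bind viral RNA that lacks the host's cap marks, 3 of the 4 members were higher. Ifit1 stood at 15.8 and 16.3 CPM in sgArid1a, against 8.25 and 8.63 CPM in sgScr (log2 0.96 ± 0.08, adjusted p = 7.64e-07). Ifit3 stood at 22.9 and 29.5 CPM in sgArid1a, against 12.7 and 12.9 CPM in sgScr (log2 1.07 ± 0.10, adjusted p = 1.05e-06). Its near copy Ifit3b stood at 4.84 and 5.71 CPM in sgArid1a, against 2.50 and 2.20 CPM in sgScr (log2 1.20 ± 0.14, adjusted p = 1.21e-05), and reads may be divided between the copies. For these 3 genes the groups did not overlap. Ifit1bl1, a relative of Ifit1 in the same cluster, stood at 17.9 and 18.0 CPM in sgArid1a, against 20.03 and 20.8 CPM in sgScr. Its log2 change of -0.16 ± 0.07 did not pass (adjusted p = 0.0776), and it did pass without sgArid1a replicate 1.

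Another 7 members, Rsad2, Cmpk2, Isg20, Bst2, Zbp1, Rtp4 and Xaf1, were each called higher. Rsad2 (viperin; chromosome 12, 26442746 to 26456452), a radical enzyme that makes a chain-terminating nucleotide, stood at 4.30 and 5.19 CPM in sgArid1a, against 1.91 and 2.48 CPM in sgScr (log2 1.16 ± 0.16, adjusted p = 3.38e-05). Its neighbour Cmpk2, a mitochondrial nucleotide kinase, changed by 0.61 ± 0.13 on the log2 scale. Isg20, an exonuclease, stood at 39.3 and 41.6 CPM in sgArid1a, against 24.6 and 24.3 CPM in sgScr (log2 0.76 ± 0.06, adjusted p = 6.12e-07). Each of these 3 was higher in both sgArid1a samples than in either sgScr sample. Bst2 (tetherin; chromosome 8, 71534255 to 71537456), which holds budding virus at the membrane, stood at 173 and 172 CPM in sgArid1a, against 110 and 114 CPM in sgScr (log2 0.65 ± 0.06, adjusted p = 1.40e-06). Zbp1, a sensor of Z-form nucleic acid that can trigger necroptosis, stood at 87.7 and 82.0 CPM in sgArid1a, against 52.2 and 54.8 CPM in sgScr (log2 0.69 ± 0.07, adjusted p = 2.31e-06). Rtp4, which restrains viral replication and interferon responses, stood at 53.0 and 52.3 CPM in sgArid1a, against 28.6 and 28.9 CPM in sgScr (log2 0.90 ± 0.06, adjusted p = 1.54e-07). These 3 genes were also apart in every sample, and Xaf1, which binds the apoptosis inhibitor XIAP, changed by 0.60 ± 0.07 on the log2 scale.

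Among the 2′-5′-oligoadenylate synthetases and their relatives, which sense double-stranded RNA and activate RNase L or act without it, Oas1a (log2 0.61 ± 0.12), Oasl2 (0.53 ± 0.12) and Oas3 (0.42 ± 0.09) were higher. Oasl1, a translational brake on Irf7, stood at 1.91 and 1.90 CPM in sgArid1a, against 1.68 and 1.99 CPM in sgScr, and the groups overlapped (log2 0.08 ± 0.18, adjusted p = 0.727). Oas2 was read at under 1 CPM in every sample and was not called (log2 -0.41 ± 0.29, adjusted p = 0.248). Of the RIG-I-like RNA sensors, Ifih1 (MDA5, log2 0.30 ± 0.09, adjusted p = 0.00871) and Dhx58 (LGP2, 0.33 ± 0.10, adjusted p = 0.0140) were higher. Ddx58, which encodes RIG-I, stood at 40.8 and 36.8 CPM in sgArid1a, against 43.0 and 43.1 CPM in sgScr (log2 -0.13 ± 0.07, adjusted p = 0.165). The call for Ifih1 was lost with DESeq2 (adjusted p = 0.0524), with cells thinned to 1500 UMIs (0.126) and without sgScr replicate 1 (0.108). That for Dhx58 was lost with DESeq2 (adjusted p = 0.0855), without sgArid1a replicate 2 and without either sgScr replicate (0.0546 to 0.114). Ddx58 was called lower without sgArid1a replicate 1.

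Of the regulators and other members, Irf7 (chromosome 7, 141262706 to 141266481), the factor that amplifies interferon production, stood at 57.0 and 61.0 CPM in sgArid1a, against 45.3 and 45.1 CPM in sgScr (log2 0.41 ± 0.06, adjusted p = 7.01e-05). Ifi27l2a, a small membrane protein gene strongly induced by interferon, stood at 514 and 507 CPM in sgArid1a, against 320 and 307 CPM in sgScr (log2 0.73 ± 0.07, adjusted p = 1.40e-06). Phf11b changed by 0.50 ± 0.06 on the log2 scale. Trim30a, a restraint on inflammatory signalling, stood at 50.7 and 47.8 CPM in sgArid1a, against 47.5 and 50.7 CPM in sgScr (log2 0.03 ± 0.07, adjusted p = 0.718). Slfn5, of the Schlafen family that is linked to T cell quiescence, stood at 14.1 and 11.9 CPM in sgArid1a, against 12.4 and 13.9 CPM in sgScr (log2 -0.01 ± 0.10, adjusted p = 0.970). In both the groups overlapped, and both were called higher when cycling-like cells were left out. Parp14, an ADP-ribosyltransferase, had a log2 change of 0.08 ± 0.06 (adjusted p = 0.278).

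Other genes of the pathway were called in both directions over all T cells, where 28% of all genes were called higher and 26.4% lower. Against these shares, the counts of the short sensing and feedback lists do not set those lists apart. Of 8 tested sensing and induction genes, Tmem173, which encodes STING (log2 0.32 ± 0.06), and Cgas, the DNA sensor that feeds it (0.45 ± 0.10), were higher, and the kinases Ikbke (-0.83 ± 0.07) and Tbk1 (-0.37 ± 0.07) were lower. Of 5 feedback genes, Ptpn6, a phosphatase, was higher (0.68 ± 0.06), and Socs3, an inhibitor of Jak kinases (-0.76 ± 0.09), and Pias1, a SUMO ligase (-0.48 ± 0.06), were lower. Of 38 further interferon-stimulated genes outside the member list, 9 were higher and 9 lower, with a median log2 change of 0.04, where 28% of all genes were higher and 26.4% lower, so these counts do not set the list apart; the 3 with the smallest p were Lgals3bp (0.39 ± 0.06), Ifi209 (-0.40 ± 0.06) and Sp100 (-0.38 ± 0.06). Of 24 interferon-gamma preferred genes, 14 were higher and 2 lower, with a median of 0.30. The 3 with the smallest p were Gbp6 (0.72 ± 0.07), Psmb9 (0.57 ± 0.06) and Psmb10 (0.51 ± 0.06), and the largest called change was that of the chemokine gene Cxcl10 (1.41 ± 0.18). No UMI of Ifnb1 or of 13 Ifna genes was counted in the T cells of any library, and of 21 interferon genes only Ifng passed the filter (117 and 114 CPM in sgArid1a, against 46.7 and 27.2 CPM in sgScr; log2 1.67 ± 0.16).

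The members differed between T cell states. Cells were clustered without the members and without other interferon and receptor genes, and clusters were named from markers, so that names end in -like and may differ from the study's own. Naive or central memory-like cells made up 20.5 and 19.5% of T cells in sgArid1a, against 50.1 and 48.9% in sgScr, and cycling-like cells 11.5 and 12.1% in sgArid1a, against 3.33 and 3.45% in sgScr. The ranking of classes by mean level left out the heat shock-high class (387 cells) and cluster 13 (306 cells), the smallest classes. Among the other classes in sgArid1a, 15 of the 29 members had their highest mean level in effector-like cells and 9 in memory-like cells. The lowest mean level lay in cycling-like cells for 15 members and in early activated-like cells for 9. In sgScr, 17 had their highest mean level in effector-like and 6 in memory-like cells, while 11 had their lowest in early activated-like and 9 in cycling-like cells. The summed level was 2621 and 2655 CPM in effector-like cells of sgArid1a, against 1458 and 1307 CPM in those of sgScr. In memory-like cells it was 2518 and 2400 CPM in sgArid1a, against 1193 and 1326 CPM in sgScr. In cycling-like cells it was 816 and 878 CPM in sgArid1a, against 641 and 711 CPM in sgScr. In both groups cycling-like cells were the lowest of these 3 states by CPM, and effector-like and memory-like cells lay close together. Ifit1, for example, averaged 46.1 CPM in memory-like and 2.48 CPM in cycling-like cells of sgArid1a, and 14.4 and 0.696 CPM in the same states of sgScr. Cycling-like cells were much deeper, with medians of 9887 and 17430.5 UMIs per cell in sgArid1a, and 16814 and 15318 in sgScr. In memory-like cells the medians were 1924 and 3226 in sgArid1a, and 3518 and 3392 in sgScr. CPM is a share of all UMIs, so a low CPM in cycling-like cells does not show fewer member UMIs per cell.

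**Figure D2:**
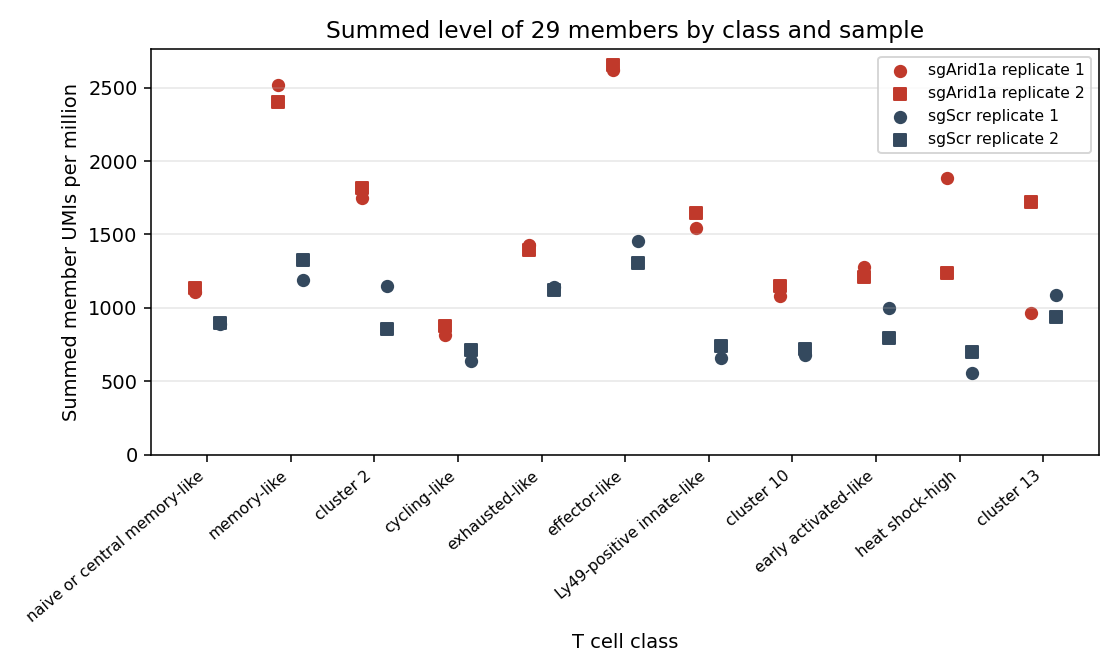
Summed CPM of the 29 members in each T cell class and sample, sgArid1a in red left of sgScr in blue, replicates as circles and squares. The red points lie above the blue ones in every class except cluster 13, where sgArid1a samples stood at 965 and 1723 CPM, against 1085 and 940 CPM in sgScr.

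Within states, members were called higher in 9 of the 10 classes tested and lower in none. In memory-like cells 24 of 27 tested members were higher, where 4.54% of all genes were higher and 1.75% lower. DESeq2 gave an adjusted p for 13 of these members and called 11. Without sgScr replicate 1 the count was 12, and without sgScr replicate 2 it was 14. Rsad2 stood at 14.2 and 12.3 CPM in memory-like cells of sgArid1a, against 1.36 and 4.88 CPM in those of sgScr (log2 2.16 ± 0.28, adjusted p = 1.27e-07 in edgeR). Isg15 stood at 207 and 185 CPM in sgArid1a, against 45.0 and 62.4 CPM in sgScr (log2 1.94 ± 0.10), and Ifit3b (1.88 ± 0.22) and Ifit1 (1.75 ± 0.14) followed. Of these 24 members, 5 had not been called over all T cells. Slfn5 stood at 38.0 and 29.3 CPM in memory-like cells of sgArid1a, against 18.6 and 29.1 CPM in sgScr (log2 0.53 ± 0.15, adjusted p = 0.0178). Trim30a stood at 81.6 and 74.3 CPM in sgArid1a, against 50.6 and 60.03 CPM in sgScr (log2 0.56 ± 0.10), and Parp14, Herc6 and Ifit1bl1 had log2 changes of 0.39, 0.47 and 0.40. Further interferon-stimulated genes outside the list were higher in 22 of 37 tested in memory-like cells (4.54% of all genes) and in 1 of 36 in naive or central memory-like cells (3.02% of all genes); the difference between these states was not tested for that list. Memory-like cells join clusters 0 and 5, in which 16 of 27 (1.24% of genes) and 15 of 26 (1.63%) members were higher when taken apart. The 10 leading genes of cluster 0 included Ifit3, Isg15 and Ifit1, although these did not place the cells.

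In effector-like cells 14 of 25 members were higher (1.78% of all genes higher, 0.846% lower), led by Ifit3b (log2 1.97 ± 0.33), Rtp4 (1.57 ± 0.14), Rsad2 (1.505 ± 0.39) and Ifit3 (1.47 ± 0.19). In Ly49-positive innate-like cells, which carry killer cell receptors of the Ly49 family, 15 of 24 were higher (2.18% higher, 0.805% lower). There Isg15 stood at 114 and 131 CPM in sgArid1a, against 13.9 and 14.1 CPM in sgScr, with no overlap (log2 3.19 ± 0.21, adjusted p = 1.09e-12). Ifit3 (2.24 ± 0.33) and Ifit1 (2.10 ± 0.38) followed. Cmpk2 had the largest fitted change (3.32 ± 0.72), which rests on 1 UMI in each sgScr sample and so depends on the prior count of the fit. In cluster 2, whose leading genes were Id3, Ms4a4c and G0s2, 15 of 27 were higher (1.19% higher, 0.327% lower), led by Ifit1 (1.48 ± 0.27), Isg15 (1.32 ± 0.15), Rtp4 (1.22 ± 0.13) and Oasl2 (1.16 ± 0.30). That count was 7 without sgScr replicate 2.

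In naive or central memory-like cells 8 of 28 members were higher (3.02% of all genes higher, 1.33% lower), namely Rtp4 (log2 0.78 ± 0.09), Ifit3 (0.72 ± 0.15), Isg15 (0.70 ± 0.11), Zbp1 (0.63 ± 0.08), Xaf1, Ifi27l2a, Bst2 and Irf7. Rsad2 stood at 1.43 and 2.63 CPM in these cells of sgArid1a, against 1.65 and 1.98 CPM in those of sgScr, and the groups overlapped (adjusted p = 0.642). Different clusters hold most of the class in the groups, cluster 1 in sgArid1a and clusters 3 and 6 in sgScr; taken apart, 1 of 25 (0.196% of genes), 6 of 27 (0.42%) and 3 of 23 (1.2%) members were higher. The count for the class was 5 without sgScr replicate 1. In exhausted-like cells 4 of 23 were higher (3.93% higher, 3.5% lower), Isg15 (0.67 ± 0.15), Rtp4 (0.62 ± 0.17), Bst2 (0.54 ± 0.10) and Ifi27l2a (0.50 ± 0.09), and 2 were without sgArid1a replicate 2 or without sgScr replicate 1. In cycling-like cells 8 of 25 were higher (4.68% higher, 3.8% lower), among them Ifit3 (2.01 ± 0.48), Ifit1 (2.005 ± 0.54) and Isg15 (1.09 ± 0.17), while Slfn5 had the largest fitted change (2.78 ± 0.68) on 3 and 0 UMIs in sgScr. Ifit3 and Ifit1 were also near the floor in these cells of sgScr, at means of 1.25 and 0.696 CPM. The count was 4 without sgArid1a replicate 2 and 5 without sgScr replicate 1. In cluster 10, led by Cd163l1 and Pde2a, 8 of 21 were higher (0.883% higher, 0.232% lower), led by Isg15 (1.72 ± 0.23), Ifit3 (1.38 ± 0.34), Ifi27l2a (1.03 ± 0.09) and Zbp1 (1.02 ± 0.15). That count was 4 without sgArid1a replicate 2, and 5 without either sgScr replicate. In early activated-like cells Isg15 (1.37 ± 0.30) and Ifi27l2a (0.65 ± 0.13) were the 2 of 16 called (0.661% higher, 0.445% lower); 1 was without sgScr replicate 1. In the shallow cluster 13 none of 5 tested members was called (4.21% of genes higher, 1.61% lower), also none with DESeq2, and 0 passed at an unadjusted p under 0.05.

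**Figure D3:**
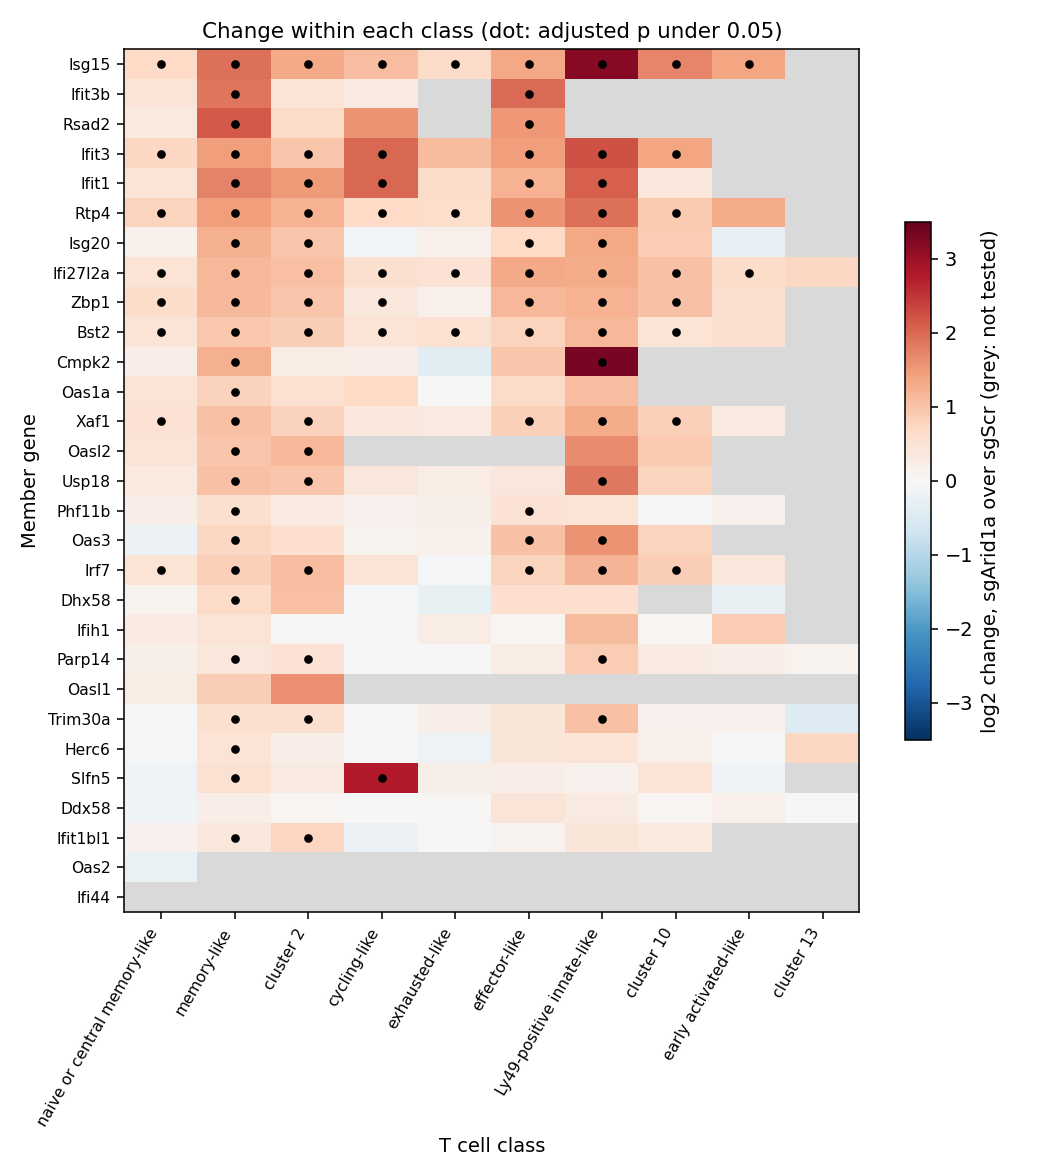
Fitted log2 change of each member (down the page, ordered as over all T cells) in each T cell class (across), sgArid1a over sgScr, from blue (lower) over white to red (higher), grey where not tested; a dot marks an edgeR adjusted p under 0.05. Isg15 and Ifi27l2a carry a dot in 9 of 10 classes, and the memory-like column holds 24 dots.

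Counting over states, Isg15 and Ifi27l2a were called in 9 classes each, Bst2 and Rtp4 in 8, Ifit3 and Zbp1 in 7 and Irf7 and Xaf1 in 6. At the other end, with cluster 13 left out of the count, Ifih1 and Ddx58 were tested in 9 classes and called in none. On that count Oasl1, tested in 3 classes, and Oas2, tested in 1, were not called either, and Ifi44 was tested in 0. In cluster 13 no member was called. The difference between states was tested itself, each class against the naive or central memory-like class, by an interaction of group and class in edgeR that blocks on sample. In memory-like cells the change was larger for 17 of 27 members (1.22% of genes larger), with a difference of 1.21 ± 0.11 on the log2 scale for Isg15, 1.82 ± 0.45 for Rsad2 and 1.25 ± 0.21 for Ifit1. Without sgArid1a replicate 2 and without sgScr replicate 1 the count was 9 and 8. In Ly49-positive innate-like cells it was larger for 8 of 27 (0.379%), with 2.49 ± 0.24 for Isg15; that count was 4 without sgArid1a replicate 2 and 2 without either sgScr replicate. In cluster 2 it was larger for 5 of 28 (0.3%) and in effector-like cells for 4 of 27 (0.505%); these counts were 3 and 2 without sgArid1a replicate 2, and 1 and 2 without sgScr replicate 2, and the effector-like count was 7 without sgArid1a replicate 1. In cycling-like cells it was larger for 1 of 28 (Slfn5; 1.34% of genes) and in cluster 10 for 1 of 24 (Ifi27l2a; 0.0315%), and in early activated-like cells and cluster 13 for 0 of 25 (0.161%) and 0 of 26 (0.557%), where 1 and 2 members passed an unadjusted p under 0.05. In exhausted-like cells no member had a larger change (1.16% of genes did) and 1 of 27, Zbp1, had a smaller one (2.98% of genes did). Zbp1 stood at 64.5 and 61.0 CPM in exhausted-like cells of sgArid1a, against 58.5 and 56.5 CPM in those of sgScr, a difference from the naive-like change of -0.45 ± 0.11 (adjusted p = 0.0166). The call for Zbp1 was lost whichever sample was left out (adjusted p between 0.0668 and 0.253); Irf7 was then called smaller without sgArid1a replicate 2 (-0.72) and Ifit3 larger without sgScr replicate 2 (3.73), which rests on 1 UMI in sgScr replicate 1 and depends on the prior count. DESeq2 gave an adjusted p for only 2 of the 27 members here and called none. For members not called, the 95% interval of the difference ran from -0.09 to 0.11 for Ifi27l2a, from -0.32 to 0.31 for Isg15 and from -0.50 to 0.84 for Ifit1.

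When each cluster's mean profile was weighted by the same mix in all 4 samples, the median log2 ratio of the 28 tested members was 0.46, against 0.45 at each sample's own mix on the same scale, log2(CPM + 1). The median of all genes was -0.07 at the common mix. At the common mix 28 of 28 members had ratios above 0, against 24 of 28 at each sample's own mix. Without sgArid1a replicate 2 the median of the members was 0.30. Isg15 had a ratio of 1.23 at the common mix and 1.30 without it, Ifit1 1.04 and 0.85, Isg20 0.36 and 0.70, and Slfn5 0.22 and -0.02.

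More cells held a UMI of a member in sgArid1a for most members. For this comparison every cell was thinned to 1500 UMIs, which left out 16.5 and 2.59% of the T cells in sgArid1a, against 2.50 and 3.28% in sgScr. With 2 samples per group an exact two-sided permutation test cannot go below 0.33, so the values are given per sample. The share of positive cells was above both sgScr samples in both sgArid1a samples for 26 of 29 members, with a median log2 ratio of 0.63. Small gaps count among these 26, such as that of Ddx58, with a log2 ratio of 0.055. UMIs per positive cell were above in both samples for 18 members, with a median log2 ratio of 0.06. Neither count was made over all genes, so they do not compare the members with other genes. By CPM over all T cells, 35% of all genes had both sgArid1a samples above both sgScr samples. For 26 of the 28 members with positive cells in every sample, a positive cell held on average under 1.4 UMIs in each, near the floor of 1, so no change of level is read for them and their share and level ratios are not compared.

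Isg15 was detected in 9.55% (95% Wilson interval 8.96 to 10.2) and 9.20% (8.71 to 9.72) of thinned cells in sgArid1a, against 3.65% (3.25 to 4.10) and 3.80% (3.37 to 4.28) in sgScr. A positive cell held 1.70 and 1.75 Isg15 UMIs in sgArid1a, against 1.42 and 1.37 in sgScr. Ifi27l2a was detected in 39.3 and 39.5% of cells in sgArid1a, against 29.1 and 28.3% in sgScr, with 2.19 and 2.08 UMIs per positive cell in sgArid1a, against 1.63 and 1.61 in sgScr. In both genes share and level were higher in both sgArid1a samples. The 2 measures are linked, as UMIs per positive cell also rise with the mean when UMIs fall on cells at random. A higher level is therefore not a separate change from a higher share. Bst2 was detected in 22.8 and 22.3% of cells in sgArid1a, against 14.8 and 14.4% in sgScr, and Rsad2 in 0.706 and 1.03% in sgArid1a, against 0.255 and 0.246% in sgScr. Without thinning, Isg15 was found in 14.7 and 19.8% of cells in sgArid1a, against 8.36 and 8.84% in sgScr. As a measure of free RNA from other cells, 0.325 and 0.482% of thinned T cells held a UMI of any of the 8 melanoma genes in sgArid1a, against 0.484 and 0.405% in sgScr. Intervals cover counting error only.

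**Figure D4:**
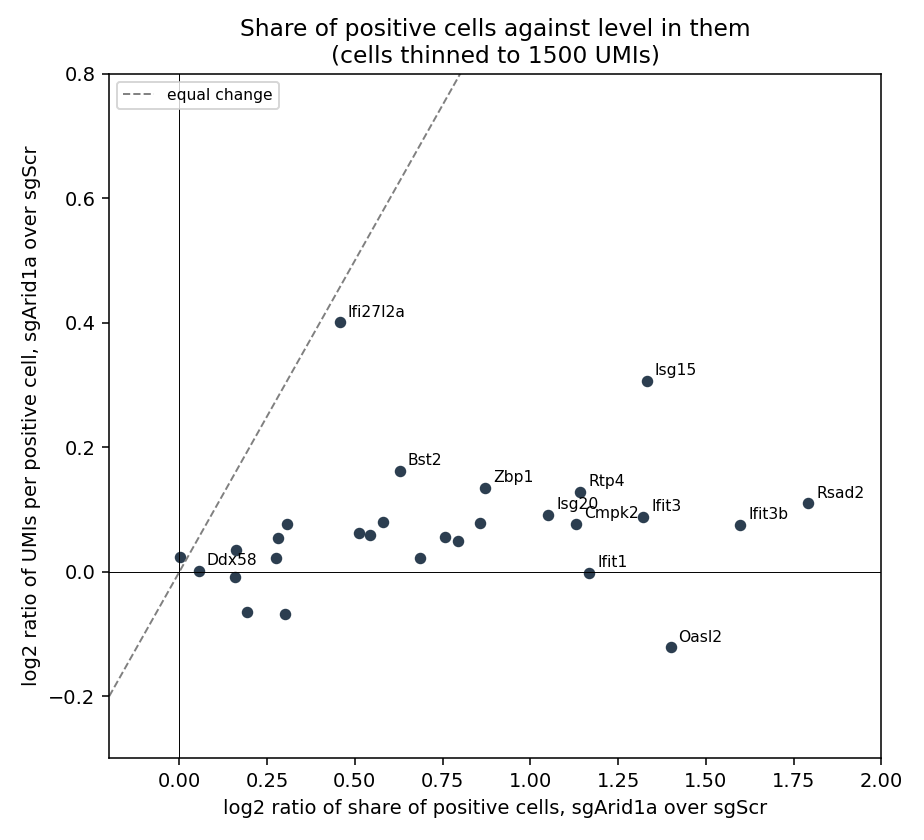
For 28 members in cells thinned to 1500 UMIs, the log2 ratio (sgArid1a over sgScr) of the share of positive cells on the x axis and of the mean UMIs per positive cell on the y axis; the dashed line marks equal change. Isg15 (1.33 and 0.31) and Ifi27l2a (0.46 and 0.40) are the members whose level can be read; for the other 26 it lies near its floor of 1 UMI, which keeps the points low.

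Shares were also read within states. Isg15 was found in 15.7 and 14.2% of memory-like cells in sgArid1a, against 4.85 and 5.48% in sgScr. In naive or central memory-like cells it was found in 4.79 and 5.16% in sgArid1a, against 3.30 and 3.56% in sgScr. In exhausted-like cells it was found in 4.92 and 5.62% in sgArid1a, against 3.58 and 3.07% in sgScr.

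Members were detected together in the same cells. Thinned cells held on average 1.79 and 1.82 members in sgArid1a, against 1.20 and 1.19 in sgScr. Cells with 5 or more members made up 7.13% (637 cells) and 7.603% (946 cells) in sgArid1a, against 2.20% (164 cells) and 2.15% (149 cells) in sgScr. Cells with none made up 23.8 and 23.2% in sgArid1a, against 33.1 and 34.1% in sgScr. Of memory-like cells, 14.6 and 14.5% held 5 or more members in sgArid1a, against 4.35 and 4.13% in sgScr, and of effector-like cells 13.8 and 15.8% in sgArid1a, against 4.77 and 5.58% in sgScr. Of cycling-like cells 1.14 and 1.29% did in sgArid1a, against 0.395 and 0% in sgScr, the last being 0 of 247 cells, which allows a share of up to 1.21%. Thinning keeps a smaller part of the deep cycling-like cells, so these shares do not show how many members such a cell holds in all. The 5% of cells with the most member UMIs held 27.8 and 28.8% of all member UMIs in sgArid1a, against 27.6 and 26.9% in sgScr. This share also depends on the mean level of the members, which was higher in sgArid1a, so it does not compare unevenness between the groups.

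**Figure D5:**
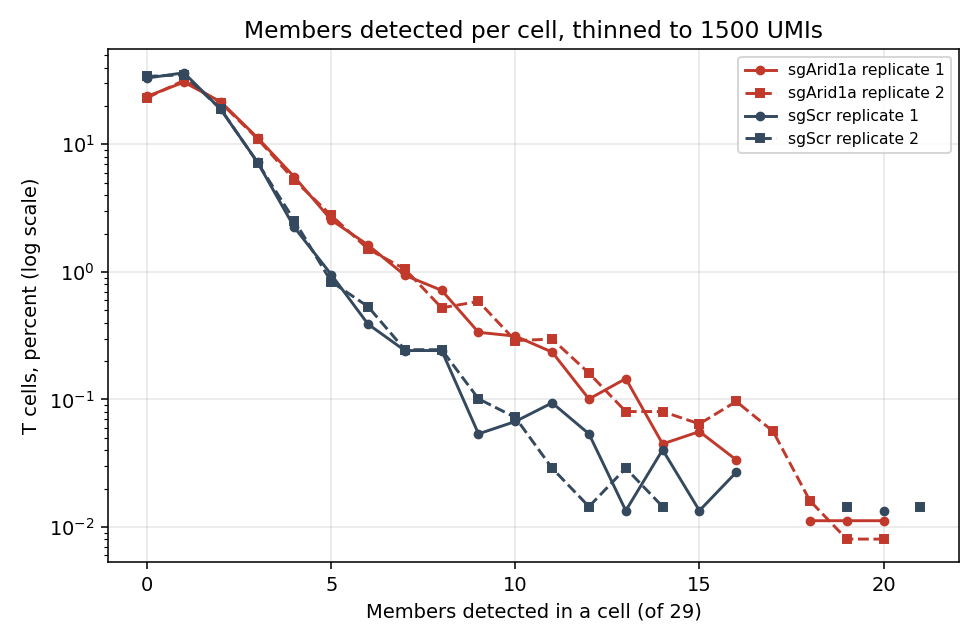
Percent of thinned T cells (log scale) against the number of the 29 members detected in a cell, sgArid1a in red and sgScr in blue, replicate 1 as a solid and replicate 2 as a dashed line. From 3 members up to 10 both red lines lie above both blue lines; cells with 5 or more make up 7.13 and 7.603% in sgArid1a, against 2.20 and 2.15% in sgScr.

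In cells with a UMI of Ifit1 or Ifit3, most other members were found more often than in cells without one. Averaged over the 4 samples, Rsad2 was found 36.2 times as often in such cells, Ifit3b 17.0 times, Cmpk2 11.99 times, Usp18 9.09 times and Isg15 7.45 times. The ratio of Rsad2 ran from 14.8 to 79.7 between samples. Its highest value rests on 0.0828% of the cells without Ifit1 or Ifit3 in sgScr replicate 1. At the low end stood Bst2 (2.01 times) and Ifi27l2a (1.64 times), which many cells without Ifit1 or Ifit3 also held: 20.8 to 21.4% of such cells in sgArid1a had Bst2. A set of 10104 genes, 23 members among them, was detected in at least 0.2% of cells without Ifit1 or Ifit3 in every sample. Rsad2 was too rare for this set. Its median ratio over all genes was 0.991, and 16 of the 30 genes with the highest ratios were members. These ratios are across cells of the same libraries and are a description.

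When cells were clustered on all variable genes, 8 of the 10 leading genes of 1 cluster of 1736 cells were members. This cluster held 5.73 and 6.73% of T cells in sgArid1a, against 1.94 and 1.62% in sgScr. The summed level of the members within it was 5487 and 5427 CPM in sgArid1a, against 4916 and 5439 CPM in sgScr. Outside it the level was 1241 and 1217 CPM in sgArid1a, against 875 and 883 CPM in sgScr. There 20 of the 29 members had both sgArid1a samples above both sgScr samples, a count that was not made over all genes. In all T cells together, 35% of all genes stood so. Cells of the cluster were spread over several classes. Of its cells, 43.5% fell in cluster 2 of the clustering without interferon genes, 24.02% in the naive or central memory-like class and 19.7% in the memory-like class. As the members placed these cells, the cluster is given as a description.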

How the data were processed

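Whole-number UMI counts per gene and cell barcode, 1 matrix per sample, were made by the authors with Cell Ranger 6.0.1, per the file headers, while Cell Ranger 3.0.2, Seurat and the build mm10 appear in the submitters' processing notes. Cells needed 500 genes and no more than 10% of UMIs from mitochondrial genes (38316 of 39473 barcodes passed), and 55 cells of a cluster led by B cell and myeloid genes were left out. Doublets were not called; cells with 2 or more Trbv segments, 6.73 and 13.2% in sgArid1a and 11.1 and 10.6% in sgScr, were removed as an alternative. T cells held 39285383 and 81460688 UMIs in the sgArid1a samples, and 35642152 and 32201336 in the sgScr samples. The members, the other gene lists and the markers were chosen with earlier results of these data known. The receptor and signalling list is not reported here.

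Cells were clustered with scanpy 1.11.5 (2000 variable genes without 174 interferon genes and receptor segments, 30 components, 15 neighbours, Leiden resolution 0.8). Sample sums of the counts, for the T cells as a whole and for each class with 50 or more cells in every sample, were tested with edgeR 4.0.16 (R 4.3.3; quasi-likelihood F test, TMM, filterByExpr, no covariate; Benjamini-Hochberg over all genes tested, threshold 0.05), checked on simulated data. Differences between classes were tested with an interaction term and the sample as a block. For shares, cells were thinned to 1500 UMIs. At the common mix a pseudocount of 1 CPM was used. All members are accounted for; per-sample values were given for the 8 largest rises, the 4 smallest changes and a set list, and per class for the 4 largest changes. Alternatives were DESeq2 1.42.0, library size scaling, other filters, depths and resolutions, a replicate block and leaving out each sample.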

Additional observations from a re-analysis of the deposited data

Results flagged for a closer look

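The change between sgArid1a and sgScr differed from that in naive or central memory-like cells, by the interaction test, for members in 7 other classes; each value is a difference of log2 changes, class minus naive or central memory-like. In memory-like cells the effector genes Rsad2 (1.82), Isg20 (1.06), Rtp4 (0.68), Xaf1 (0.51), Zbp1 (0.49) and Bst2 (0.46) had a larger change. So did the Ifit genes Ifit3b (1.42), Ifit1 (1.25) and Ifit3 (0.74), and Isg15 (1.21), its protease gene Usp18 (0.68) and its ligase gene Herc6 (0.52). The same held for Oas3 (0.91), Ifi27l2a (0.66), Slfn5 (0.65), Trim30a (0.57) and Irf7 (0.37).

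In Ly49-positive innate-like cells the larger changes were those of Isg15 (2.49), Ifit3 (1.52), Usp18 (1.52), Rtp4 (1.13), Trim30a (1.06), Ifi27l2a (0.82), Irf7 (0.71) and Bst2 (0.70). In effector-like cells they were those of Ifi27l2a (0.84), Rtp4 (0.80), Isg15 (0.64) and Zbp1 (0.56). In cluster 2 they were those of Irf7 (0.62), Isg15 (0.61), Trim30a (0.57), Ifi27l2a (0.55) and Bst2 (0.37), and in cluster 10 that of Ifi27l2a (0.54). In cycling-like cells Slfn5 had a fitted difference of 2.93, which rests on 3 and 0 UMIs in the sgScr samples and depends on the prior count. In exhausted-like cells Zbp1 had a smaller change (-0.45).

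Signal also appeared in cells that no test used. In the heat shock-high class, too small to test, the summed level of the members was 1886 and 1236 CPM in sgArid1a, against 556 and 700 CPM in sgScr, a ratio of 2.49 between the group means. In the cells left out as lying outside the T cell gate, 16 and 17 in sgArid1a and 10 and 12 in sgScr, it was 2071 and 3898 CPM in sgArid1a, against 887 and 654 CPM in sgScr.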

How the results depend on the processing

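Over all T cells, across all alternatives, 7 values of single members lost a call (Dhx58, Ifih1), 7 gained one (Parp14, Trim30a, Ddx58, Ifit1bl1) and 3 reversed. The log2 change of Slfn5 turned positive without cycling-like cells (0.33), with thinned cells (0.37) and without cells of the expanded segments Trbv13-1 and Trbv20 (0.32, chosen after seeing the data); the cause was not tested. Leaving out each sample gave 18 to 20 members higher and 0 to 2 lower, and 5171 to 7476 genes called; thinning gave 4062 genes, against 6964.

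Within classes, DESeq2 called 4 members in naive or central memory-like, 11 in memory-like, 5 in cluster 2, 3 in cycling-like, 2 in exhausted-like, 4 in effector-like, 2 in Ly49-positive innate-like, and 1 each in cluster 10 and early activated-like cells. It gave no adjusted p for between 10 and 22 members in these classes. In the interaction fits given next, DESeq2 gave an adjusted p for only 2 members each in exhausted-like, memory-like and effector-like cells. It gave one for 4 members in cluster 2 and for 1 in Ly49-positive innate-like cells, so its low counts there cannot be set against those of edgeR. Without a filter the counts were 4 in early activated-like cells and 1 in cluster 13. Leaving out each sample gave 5 to 8, 12 to 24, 7 to 15, 4 to 9, 2 to 4, 10 to 17, 12 to 16, 4 to 8 and 1 to 3 in the same order of classes.

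Against naive or central memory-like cells, the interaction called 1 member in exhausted-like cells (0 with DESeq2, 0 to 1 leaving out each sample). With another class in its place it called 17 in memory-like (DESeq2 2, leave-one-out 8 to 12), 5 in cluster 2 (0, 1 to 5), 4 in effector-like (1, 2 to 7), 8 in Ly49-positive innate-like (1, 2 to 10) and 0 in early activated-like cells and cluster 13.

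The share of cells with 5 or more members was 3.38 times as high in sgArid1a as in sgScr, and 3.23 and 2.57 times at 1000 and 2500 UMIs, 3.69 times without cycling-like cells and 3.28 to 3.49 times leaving out each sample. The median at a common mix was 0.30 to 0.54 leaving out each sample. The counts of members with higher shares and with more UMIs per positive cell cannot fall when a sample is left out. Leaving out samples is therefore no check on these counts. With the replicate number as a block, 20 members and 7052 genes were called over all T cells, and 1 member in early activated-like cells. Samples with the same number did not deviate together over genes (correlation -0.04). That single value cannot show whether such samples were processed together. Depth limits Ifi44 and Oas2, at under 1 CPM, and the classes with few cells.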

Other observations

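Genes outside the member list were also detected more often in cells with a UMI of Ifit1 or Ifit3. Averaged over the 4 samples, Iigp1, an interferon-inducible GTPase, was found 7.15 times as often in such cells, Trim30c 5.82 times, Gbp10, a guanylate-binding protein gene, 4.69 times, Parp12 4.53 times and Ube2l6, the enzyme that passes Isg15 on to its ligases, 4.33 times. Ficd (3.71 times) and Krt83 (3.60 times), which were in none of the interferon lists used here, were also among the 30 genes with the highest ratios. Trim30c and Gbp10 have relatives of near-identical sequence, so their counts are uncertain. These genes were chosen after their values were seen, and the ratios are a description across cells.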
